A study of Homo sapiens with 12 samples.

Results

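MondoA, its partner MLX, TXNIP and the arrestin-domain genes were followed in A375 melanoma cells. The genes were taken from the count table by symbol. They are MLXIP, which encodes MondoA, its paralog MLXIPL, which encodes ChREBP, MLX, TXNIP, and the arrestin-domain-containing genes ARRDC1, ARRDC2, ARRDC3 and ARRDC4, 8 of the 44659 genes listed. All 8 were found, and 7 had enough reads to be tested in both experiments.

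A375 is an established human melanoma cell line whose BRAF kinase is mutated. RNA-seq was performed on 4 groups of 3 libraries. MAPKi-treated cells received 500 nM of the BRAF inhibitor vemurafenib and 500 nM of the MEK inhibitor cobimetinib for 24 h and were compared with cells given the solvent DMSO for 24 h. Gln-depleted cells were kept for 24 h in medium without glutamine and were compared with cells in CTRL medium, which holds 2 mM glutamine. All 4 groups derive from a single cell line, and according to the labels the RNA came from a cytoplasmic fraction. The MAPKi and DMSO libraries were sequenced in one batch and the Gln-depleted and CTRL libraries in another, so a difference in level between the experiments cannot be told apart from the sequencing batch, and changes were measured within each experiment. In the glutamine experiment the labels also give experimental batch 1 to replicate 1 and experimental batch 2 to replicates 2 and 3. The labels do not say that replicates are separate cultures, and the p-values measure only the spread between these libraries, which may be technical.

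MondoA is a transcription factor that stays in the cytoplasm until phosphorylated sugars such as glucose 6-phosphate bring it, bound to MLX, into the nucleus. The pair then binds carbohydrate response elements, which are made of paired E-box-like sites set a fixed distance apart. TXNIP, its best-known target, encodes a protein with an arrestin fold that binds thioredoxin and promotes the removal of glucose transporters from the cell surface, and ARRDC4, a close relative, also restrains glucose uptake. The other ARRDC proteins are adaptors that bring ubiquitin ligases of the NEDD4 family to membrane proteins.

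The genes lie on different chromosomes of GRCh38 (GENCODE annotation). TXNIP (ENSG00000265972) occupies chr1:145992435-145996579 on the minus strand, and ARRDC4 (ENSG00000140450) chr15:97960703-97973833 on the plus strand. ARRDC3 (ENSG00000113369) occupies chr5:91368631-91383317 on the minus strand, ARRDC2 (ENSG00000105643) chr19:18001132-18014102 on the plus strand, and ARRDC1 (ENSG00000197070) chr9:137605685-137615360 on the plus strand. MLXIP (ENSG00000175727) occupies chr12:122078756-122147344 on the plus strand, MLX (ENSG00000108788) chr17:42567072-42573239 on the plus strand, and MLXIPL (ENSG00000009950) chr7:73593194-73624543 on the minus strand. Reads were assigned to exons, and whether the counting used strand is not given in the sources used here. Where exons of a gene and of a partner on the opposite strand overlap, their reads cannot be told apart. The gene spans, introns included, overlap by 930 bases for MLX and PSMC3IP and by 35 bases for ARRDC1 and ARRDC1-AS1. Those of ARRDC3 and ARRDC3-AS1 overlap by 2969 bases. The overlap of exons alone was not counted.

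The promoters of TXNIP and ARRDC4, the genes that rose most with MAPKi, are shown for the E-box-like letters they hold, since MondoA and MLX are known to bind such sites. Each sequence is the 250 bases before the transcription start (RefSeq, GRCh38.p14), at chr1:145996580-145996829 on the minus strand for TXNIP and chr15:97960453-97960702 on the plus strand for ARRDC4. Capitals mark 2 E-box-like sites set 5 bases apart (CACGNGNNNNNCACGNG) in TXNIP and a whole E-box (CACGTG) in ARRDC4.
TXNIP: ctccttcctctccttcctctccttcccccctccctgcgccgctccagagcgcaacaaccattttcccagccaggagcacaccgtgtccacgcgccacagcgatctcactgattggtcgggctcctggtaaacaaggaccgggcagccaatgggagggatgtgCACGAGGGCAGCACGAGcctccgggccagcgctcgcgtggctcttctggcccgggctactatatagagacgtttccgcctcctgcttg
ARRDC4: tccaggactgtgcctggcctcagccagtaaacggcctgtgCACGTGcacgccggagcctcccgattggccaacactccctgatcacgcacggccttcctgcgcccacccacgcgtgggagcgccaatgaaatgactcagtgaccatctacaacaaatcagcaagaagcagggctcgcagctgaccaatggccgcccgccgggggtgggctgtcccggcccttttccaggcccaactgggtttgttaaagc

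The paired sites of TXNIP begin 88 bases before the start, and the E-box of ARRDC4 begins 210 bases before it. Both motifs were searched on both strands of the 250 bases before each start. The letters of the paired motif were chosen after the promoters had been seen, and a paired match whose variable bases are T also holds the E-box. RefSeq gave 11 promoters for the 8 genes, TXNIP, ARRDC2 and ARRDC3 having 2 each. Apart from the matches above, only the MLX promoter held a match, an E-box that begins 50 bases before the start. The E-box occurred in 6.34% of 35116 RefSeq promoters of the same length and the paired motif in 0.0456% of them (16 promoters). A match describes letters only, and binding was not measured.

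Between 31056296 and 40071368 reads were counted per library. Genes known to follow each treatment were checked first. With MAPKi, 14 of 14 targets of the MAPK pathway fell, by log2 fold changes of -9.53 (DUSP6, a phosphatase of ERK) to -0.83, and with Gln depletion 9 of 9 tested genes of the amino acid response rose, by 1.19 to 3.50 (SLC7A11, the cystine transporter). The 8 melanocyte-lineage markers were all detected, with a summed level of 1546 to 1612 in DMSO and 9041 to 10976 with MAPKi (CPM of all counted reads), and of 1172 to 1475 in CTRL medium and 698 to 776 with Gln depletion. Of the 4 epithelial markers, EPCAM and CDH1 averaged under 10 reads, so their sum comes mostly from KRT8 and KRT18. The 4 epithelial markers summed to 100.4 to 113 CPM in DMSO and 27.8 to 31.0 with MAPKi, and the 4 immune markers summed to at most 0.555 in any library. The non-coding RNA RN7SK held 3.95% to 4.40% of reads with MAPKi against 1.93% to 2.15% in DMSO, and 3.79% in Gln-depleted replicate 3 against 1.99% and 2.46% in the other Gln-depleted libraries. The part of these differences in the results below was not tested.

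Levels are given as CPM, counts per 1000000 reads on the tested mRNAs after TMM scaling, and, where genes are compared with each other, as CPM per kb of merged exons. Per kb, TXNIP was at 69.0 ± 11.9 CPM per kb in DMSO, 168 ± 4.83 with MAPKi, 29.4 ± 16.0 in CTRL medium and 83.5 ± 49.1 with Gln depletion (SD, n = 3 each). MLX, the shared partner of MondoA and ChREBP, was at 21.5 ± 0.681 CPM per kb in DMSO, 24.9 ± 1.36 with MAPKi, 29.0 ± 1.32 in CTRL medium and 31.7 ± 1.01 with Gln depletion. TXNIP was thus the most abundant of the 8 mRNAs in all DMSO and MAPKi libraries. In CTRL medium, where TXNIP ranged from 16.2 to 47.3 CPM per kb, TXNIP and MLX did not differ beyond their spread. With Gln depletion TXNIP ranged from 30.49 to 127 CPM per kb and MLX from 30.53 to 32.4, so TXNIP did not lead in every library. MLX exceeded the remaining genes in every group.

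Among these, the order in DMSO was as follows. ARRDC4 (5.70 ± 0.317 CPM per kb) came before ARRDC1 (5.12 ± 0.371), ARRDC3 (4.05 ± 0.337) and MLXIP (3.58 ± 0.174), and ARRDC2 stood lower at 2.03 ± 0.0378 (SD, n = 3 each). The steps from ARRDC4 to ARRDC1 and from ARRDC3 to MLXIP were within about the spread between replicates, and their order depends on the length used: per kb of the longest transcript, MLXIP was at 5.92 and ARRDC1 at 6.10, both above ARRDC4 (5.70). With MAPKi, ARRDC4 stood clear of these genes at 12.4 ± 1.16 CPM per kb, ahead of ARRDC1 (4.38 ± 0.196) and MLXIP (4.18 ± 0.124), which lay close together, ARRDC3 (3.75 ± 0.0946) and ARRDC2 (2.89 ± 0.256). Per kb of the longest transcript, MLXIP (6.91 ± 0.204) was instead above ARRDC1 (5.21 ± 0.233) with MAPKi by more than their spread, and MLXIP came first of these genes in CTRL medium (5.86 ± 0.546). In CTRL medium ARRDC1 (4.43 ± 1.26), ARRDC4 (3.56 ± 0.0877), MLXIP (3.54 ± 0.331), ARRDC2 (2.62 ± 0.449) and ARRDC3 (2.62 ± 0.968) each lay within the spread of a neighbour. With Gln depletion ARRDC3 came first of them at 14.2 ± 7.42, ahead of ARRDC4 (5.82 ± 1.56), ARRDC2 (4.82 ± 0.758) and ARRDC1 (3.93 ± 0.926), which lay within their spread, and MLXIP (2.37 ± 0.372).

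MLXIPL was close to absent. Its raw counts were 0, 3 and 1 in DMSO, 0, 2 and 3 with MAPKi, 2, 4 and 4 in CTRL medium and 3, 0 and 1 with Gln depletion. No library had more than 4 reads, no group stood apart, and the gene was not tested, so of the 2 glucose-sensing factors only MLXIP gave a measurable mRNA at this depth.

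**Figure D1:**
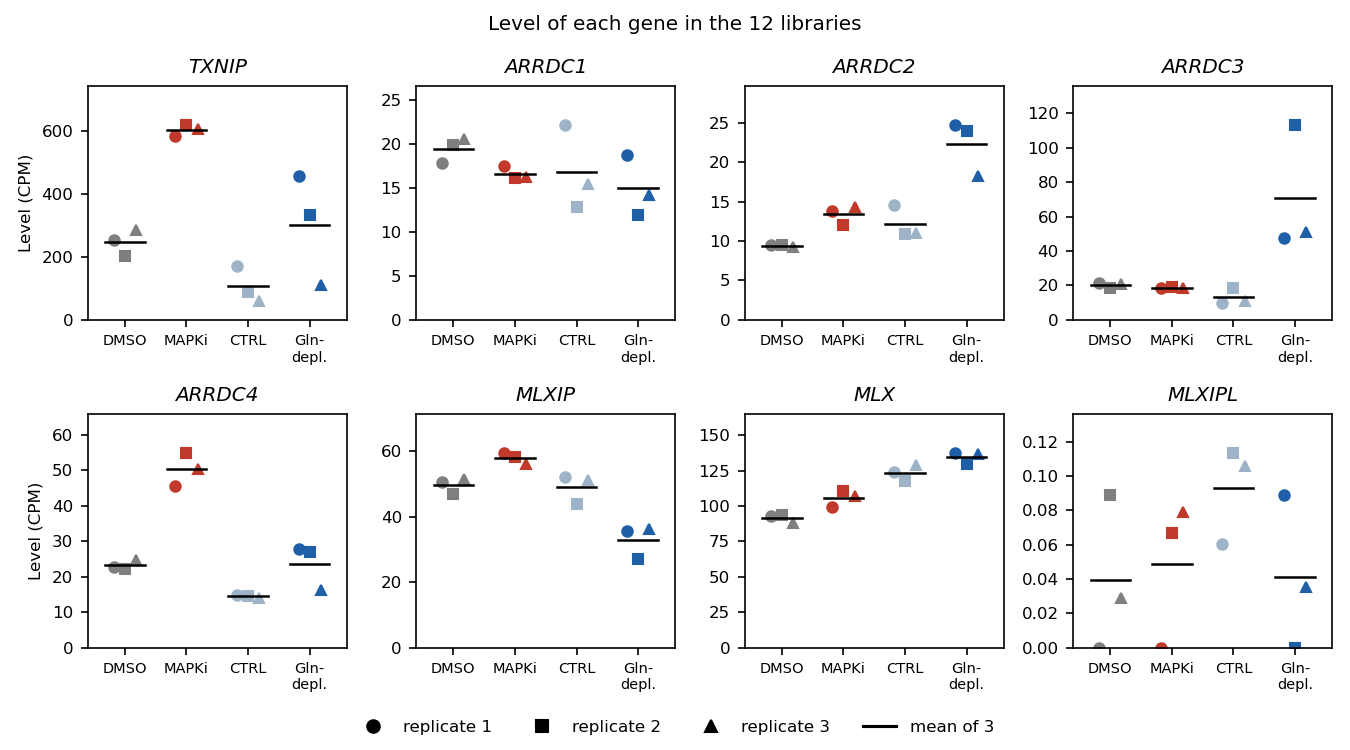
Level in CPM (vertical axis, from 0 in each panel) of each gene in the 12 libraries, by group (horizontal axis). Symbols mark the replicate number and bars the mean of 3 libraries. TXNIP and ARRDC4 are high in all 3 MAPKi libraries, ARRDC3 in the 3 Gln-depleted libraries, and MLXIPL stays at or below 0.114 CPM.

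The first comparison asked how these genes changed when the MAPK pathway was inhibited. TXNIP and ARRDC4 more than doubled, ARRDC2 rose to a lesser degree, MLXIP and MLX rose slightly, ARRDC1 fell slightly and ARRDC3 did not pass the test. Of the 7 genes tested, 5 were called higher and 1 lower at an adjusted p of at most 0.05, where 39.3% of the 12595 mRNAs tested were called higher and 38.8% lower. Against a 1.5-fold change, the threshold set in the study's methods, 2 genes were called higher and 0 lower, where 17.2% of the mRNAs were called higher and 18.4% lower. Calls were thus common among all mRNAs in this experiment. The share of all mRNAs whose groups did not overlap was not counted in either experiment. When all 12 libraries shared 1 fit and its wider spread, 3 genes (TXNIP, ARRDC2 and ARRDC4) were called, where 6274 of 12627 mRNAs were called. In that fit 1 gene (ARRDC4) passed the fold threshold, where 3037 mRNAs did. The median log2 fold change of the 7 genes was 0.22, and that of all mRNAs tested 0.01. In RNA pooled over many cells, fewer cells that hold an mRNA and less of it per cell cannot be told apart.

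TXNIP stood at 586, 621 and 607 CPM in MAPKi replicates 1, 2 and 3 and at 256, 203 and 288 CPM in DMSO. The lowest MAPKi library was above the highest DMSO library, and the MAPKi libraries lay closer together. The rise was 2.43-fold, a log2 fold change of 1.28 (SE 0.11), with an adjusted p of 4.73e-06 in the quasi-likelihood test of edgeR (Benjamini-Hochberg adjusted) and of 9.33e-05 against the fold threshold. MAPKi was higher by 2.29, 3.06 and 2.11 times within the same replicate number. TXNIP took 0.0546%, 0.0601% and 0.0588% of all reads with MAPKi, against 0.0246%, 0.0196% and 0.0275% in DMSO.

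ARRDC4 stood at 45.5, 54.9 and 50.3 CPM with MAPKi and at 22.8, 22.0 and 24.6 CPM in DMSO. The groups did not overlap. The log2 fold change was 1.12 (SE 0.08), or 2.17-fold, with an adjusted p of 9.48e-07, and of 3.65e-05 against the fold threshold (edgeR's quasi-likelihood test, Benjamini-Hochberg). Its rise was close in size to that of TXNIP, although the level per kb of ARRDC4 was far lower, at 12.4 ± 1.16 against 168 ± 4.83 CPM per kb with MAPKi (SD, n = 3).

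ARRDC2 was at 13.9, 12.1 and 14.3 CPM with MAPKi and at 9.53, 9.49 and 9.21 CPM in DMSO, again without overlap. The rise of 0.51 on the log2 scale (SE 0.08) had an adjusted p of 0.00038 against no change (edgeR, Benjamini-Hochberg), and it did not pass the fold threshold. ARRDC1, whose protein recruits NEDD4-family ligases and takes part in the release of vesicles from the plasma membrane, was at 17.5, 16.1 and 16.2 CPM with MAPKi and 17.9, 19.8 and 20.6 CPM in DMSO. All MAPKi libraries were below all DMSO libraries, by a narrow margin in replicate 1, and the log2 fold change was -0.23 (SE 0.07, adjusted p = 0.0175, edgeR). Without DMSO replicate 3 it was -0.18 and its adjusted p 0.0575 (edgeR). ARRDC1-AS1, whose span overlaps that of ARRDC1 on the other strand, went the other way, from 16.8 to 19.7 CPM in DMSO to 23.6 to 24.1 CPM with MAPKi.

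ARRDC3, whose protein is an adaptor for the turnover of membrane receptors, was at 18.4, 19.2 and 18.5 CPM with MAPKi and at 21.6, 18.4 and 20.7 CPM in DMSO. The groups overlapped. The log2 fold change was -0.11 (SE 0.07, adjusted p = 0.179, edgeR), with a 95% interval of -0.27 to 0.05, so a rise or fall as large as those of TXNIP and ARRDC4 lies outside the interval. Without DMSO replicate 2, the lowest of its group, ARRDC3 was called lower, at -0.18 with an adjusted p of 0.0254 (edgeR).

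MLXIP and MLX, the transcription factors, had smaller log2 fold changes than TXNIP and ARRDC4. MLXIP was at 59.6, 58.3 and 56.2 CPM with MAPKi and 50.6, 47.0 and 51.5 CPM in DMSO, and MLX at 99.5, 111 and 107 CPM against 93.2, 93.4 and 88.3 CPM. Neither pair of groups overlapped. The log2 fold changes were 0.22 (SE 0.05, adjusted p = 0.00226) for MLXIP and 0.21 (SE 0.05, adjusted p = 0.00382) for MLX in edgeR's quasi-likelihood test, and neither passed the fold threshold. PSMC3IP, whose span overlaps that of MLX, fell from 14.6 ± 0.805 to 5.72 ± 0.525 CPM (SD, n = 3).

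The second comparison asked the same of cells kept without glutamine. Here ARRDC3 rose most. TXNIP, ARRDC2, ARRDC3, ARRDC4 and MLX were higher, and MLXIP and ARRDC1 lower, in every pair of libraries. The share of all mRNAs that kept 1 direction in every pair was not counted, so this alone does not set these genes apart. MLX and ARRDC1 were not called with or without pairing. The spread between replicates was wider than in the first experiment. Of the 7 genes tested, 2 (ARRDC2 and ARRDC3) were called higher and 0 lower, where 9.43% of 12514 mRNAs were called higher and 8.29% lower. Past the fold threshold, 1 gene (ARRDC3) was called higher and 0 lower, where 3.47% of mRNAs were called higher and 2.09% lower. The same replicate numbers paired the libraries of this experiment, and with the replicate block 4 genes were called higher (TXNIP, ARRDC2, ARRDC3 and ARRDC4) and 1 lower (MLXIP), where 25.1% of mRNAs were called higher and 23.8% lower. With that block 3 genes passed the fold threshold upward (TXNIP, ARRDC2 and ARRDC3), where 8.84% of mRNAs did so upward and 7.82% downward. Without the replicate 3 pair and without the block, a fit added after the data were seen, 0 genes were called, where 78 of 12522 mRNAs were. In that fit ARRDC3 was at 2.50 with an adjusted p of 0.104 (edgeR). The median log2 fold change of the 7 genes was 0.76 without the block, and that of all mRNAs tested 0.0014.

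ARRDC3 stood at 47.4, 113 and 51.1 CPM in Gln-depleted replicates 1, 2 and 3 and at 9.89, 18.6 and 10.7 CPM in CTRL medium. Replicate 2 was highest in both groups, and the groups did not overlap. The rise was 5.57-fold, a log2 fold change of 2.48 (SE 0.41), with an adjusted p of 0.00736, and of 0.0174 against the fold threshold (edgeR's quasi-likelihood test, Benjamini-Hochberg). With the replicate block it was 2.42 (SE 0.13, adjusted p = 4.84e-05). The ratios within replicates 1, 2 and 3 were 4.79, 6.08 and 4.80, and the log2 ratios were 2.26 in experimental batch 1 and 2.43 in experimental batch 2. ARRDC3-AS1 had at most 30 reads in any library, against 1461 to 4024 for ARRDC3 in the Gln-depleted libraries.

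TXNIP was at 459, 333 and 110 CPM with Gln depletion and at 170, 89.1 and 58.6 CPM in CTRL medium. The groups overlapped, since Gln-depleted replicate 3 was below CTRL replicate 1, but each Gln-depleted library was above its own control, by 2.70, 3.74 and 1.88 times. Without pairing, the log2 fold change of 1.56 (SE 0.54) had an adjusted p of 0.0788 (edgeR, Benjamini-Hochberg) and was not called. With the replicate block it was 1.46 (SE 0.19), with an adjusted p of 0.000936 and of 0.0055 against the fold threshold (edgeR). The log2 ratio was 1.43 in experimental batch 1 and 1.41 in experimental batch 2. Without Gln-depleted replicate 3, the unpaired log2 fold change was 1.92 (adjusted p = 0.0384, edgeR), and without CTRL replicate 1 it was 2.06 (adjusted p = 0.0433, edgeR). Leaving out any other single library gave lower values of 1.12 to 1.48, which were not called (adjusted p from 0.154 to 0.195, edgeR).

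ARRDC2 was at 24.8, 24.0 and 18.3 CPM with Gln depletion and 14.5, 10.9 and 11.0 CPM in CTRL medium, without overlap. The log2 fold change was 0.93 (SE 0.22, adjusted p = 0.0256, edgeR), a 1.90-fold rise, and the ratios within replicates were 1.70, 2.21 and 1.66. Only with the replicate block did it pass the fold threshold (adjusted p = 0.0469, edgeR). It was no longer called without CTRL replicate 2 (0.86, adjusted p = 0.1; edgeR), CTRL replicate 3 (0.87, adjusted p = 0.0986) or Gln-depleted replicate 2 (0.88, adjusted p = 0.0949).

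ARRDC4 was at 27.8, 26.8 and 16.3 CPM with Gln depletion and 14.7, 14.6 and 14.0 CPM in CTRL medium. The groups did not overlap, but replicate 3 rose by 1.16 times only, against 1.89 and 1.84 times in replicates 1 and 2. The log2 fold change of 0.76 (SE 0.24) had an adjusted p of 0.0646 (edgeR) and was not called. With the replicate block it was 0.72 (SE 0.18, adjusted p = 0.014, edgeR), and without Gln-depleted replicate 3 it was 0.93 (adjusted p = 0.0387, edgeR, unpaired). Unpaired fits without any other single library gave 0.63 to 0.76, which were not called (adjusted p from 0.103 to 0.203, edgeR). The log2 ratio was 0.92 in experimental batch 1 and 0.55 in experimental batch 2. ARRDC1 was at 18.7, 11.8 and 14.1 CPM against 22.1, 12.8 and 15.4 CPM, with overlapping groups and a log2 fold change of -0.12 (SE 0.27, adjusted p = 0.779, edgeR).

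MLXIP was at 35.6, 26.9 and 36.1 CPM with Gln depletion and at 52.3, 43.9 and 51.3 CPM in CTRL medium. All Gln-depleted libraries were below all CTRL libraries, at 0.681, 0.614 and 0.705 of their own controls. The log2 fold change was -0.53 (SE 0.20, adjusted p = 0.0965, edgeR), and -0.54 with the replicate block (SE 0.11, adjusted p = 0.0065, edgeR). The log2 ratio was -0.56 in experimental batch 1 and -0.60 in experimental batch 2. MLX was at 138, 130 and 137 CPM against 124, 118 and 129 CPM, a log2 difference of 0.17 (SE 0.17, adjusted p = 0.501, edgeR) with a 95% interval of -0.21 to 0.55 that was not called with the replicate block either (adjusted p = 0.214).

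**Figure D2:**
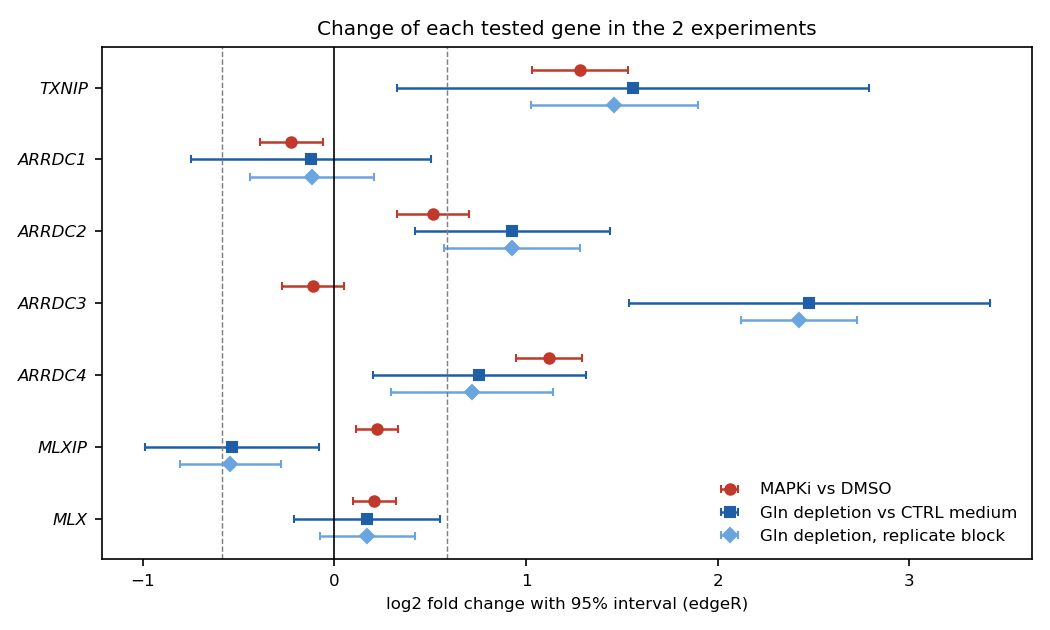
Log2 fold change of the 7 tested genes (horizontal axis) with its 95% interval, for MAPKi against DMSO (circles), Gln depletion against CTRL medium (squares), and Gln depletion with the replicate block (diamonds). Dashed lines mark a 1.5-fold change in either direction. The intervals of TXNIP lie over each other in the 2 experiments, while those of ARRDC3 and MLXIP lie apart.

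Whether a gene responded differently in the experiments was tested as the difference of the log2 fold changes, MAPKi minus Gln depletion, over all 12 libraries. Of the 7 genes, 1 (MLXIP) was called higher and 1 (ARRDC3) lower, where 19.8% of 12627 mRNAs were called higher and 20.7% lower. The difference was 0.80 (SE 0.18, adjusted p = 0.00459, edgeR) for MLXIP, which was higher in each MAPKi library than in any DMSO library and lower in each Gln-depleted library than in any CTRL library. It was -2.55 (SE 0.45, adjusted p = 0.000908, edgeR) for ARRDC3, which rose with Gln depletion only.

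The other genes did not pass this test without the block. The difference was -0.22 for TXNIP, with a 95% interval of -1.60 to 1.15 and an adjusted p of 0.804 (edgeR). With the pairs of the glutamine experiment as a replicate block, a fit added after the data were seen, it was -0.14 (SE 0.23, adjusted p = 0.626, edgeR). ARRDC4 differed by 0.41 (interval -0.13 to 0.95, adjusted p = 0.215), ARRDC2 by -0.37 (interval -0.86 to 0.12, adjusted p = 0.214), MLX by 0.08 (adjusted p = 0.667) and ARRDC1 by -0.05 (adjusted p = 0.901) in edgeR's test. In the added fit ARRDC2 was called as well (-0.37, SE 0.15, adjusted p = 0.0485, edgeR), where 8201 of 12627 mRNAs were called, and with a replicate block in both experiments it was not (-0.37, SE 0.17, adjusted p = 0.0824, edgeR).

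The makeup of the arrestin-domain mRNAs was compared per length. TXNIP and ARRDC1 to ARRDC4 together were at 85.9 ± 12.5 CPM per kb in DMSO, 191 ± 5.71 with MAPKi, 42.6 ± 17.3 in CTRL medium and 112 ± 53.1 with Gln depletion (SD, n = 3 each). TXNIP held 80.1% ± 2.36 of this sum in DMSO and 87.8% ± 0.0972 with MAPKi, and 66.4% ± 9.54 in CTRL medium and 70.6% ± 12.3 with Gln depletion. ARRDC3 held 4.76% ± 0.440 in DMSO and 1.96% ± 0.0271 with MAPKi, against 6.88% ± 3.39 in CTRL medium and 14.4% ± 7.20 with Gln depletion. The summed level was higher in each MAPKi library than in any DMSO library. In the glutamine experiment the groups overlapped, with 52.5 CPM per kb in Gln-depleted replicate 3 and 61.9 in CTRL replicate 1. TXNIP held most of the sum in every library, while the share of ARRDC3 lay lower with MAPKi and, on average, higher with Gln depletion. The level of ARRDC3 itself was not called with MAPKi, at 4.05 ± 0.337 CPM per kb in DMSO and 3.75 ± 0.0946 with MAPKi. The sum that its share is taken of was higher with MAPKi.

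**Figure D3:**
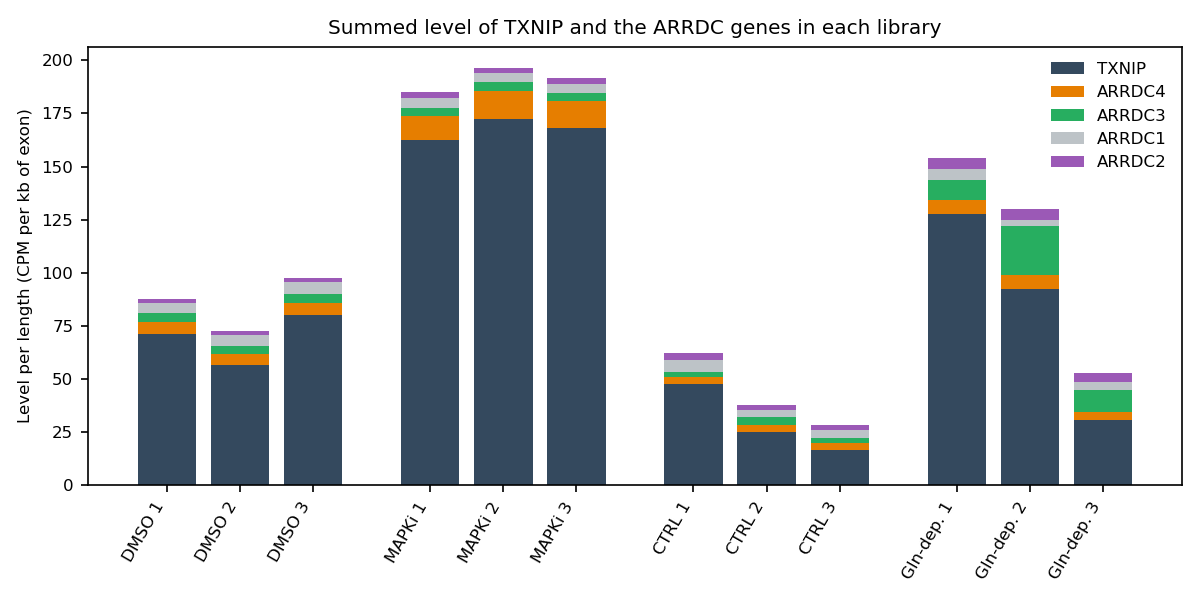
Summed level per length (CPM per kb of exon, vertical axis from 0) of TXNIP and the 4 ARRDC genes in each of the 12 libraries, stacked by gene. TXNIP makes up 57.4% to 87.9% of each bar, and the ARRDC3 segment is widest in the Gln-depleted libraries.

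As a description over the 12 libraries, the log2 CPM of TXNIP and ARRDC4 had a Pearson correlation of 0.92. These points include the group differences above and share 2 sequencing batches, and other genes were closer to both. Among 10740 mRNAs, the 5 closest to TXNIP were EXOC6B (0.97), a subunit of the exocyst, KIF5A (0.96), a kinesin, TRIM56 (0.96), TRIO (0.95) and TRIM4 (0.94), and ARRDC4 came in position 14. The 5 closest to ARRDC4 were WASHC2C (0.97), EXOC6B (0.97), RNF20 (0.97), ZFHX4 (0.96) and FOXO3 (0.96), the last a transcription factor restrained by AKT, and TXNIP came in position 40.

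The genes around these in the pathway were taken from lists by role, and each list is read against the background shares given above. MLX belongs to the network of MYC, MAX and the MXD proteins, which bind the same E-box. With MAPKi, 5 of its 9 tested genes rose and 2 fell, with a median log2 fold change of 0.26. MXD4 (2.26) and MXD1 (0.68), which compete with MYC for MAX, had the largest rises, and MYC (-4.06) and MXD3 (-1.21) fell. With Gln depletion 1 rose (MXD1, 2.29) and 1 fell (MYC, -0.96), the median was 0.05, and with the replicate block 1 rose and 2 fell. MYC was also in the list of MAPK targets.

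Among other known targets of MondoA or ChREBP, which include enzymes of fatty acid synthesis and of sugar metabolism and transcription factors, 4 of 14 tested rose and 8 fell with MAPKi, with a median of -0.63. ELOVL6 (0.80), a fatty acid elongase, and ACACB (0.52) had the largest rises, and RGS16 (-2.02) and ME1 (-1.48), the malic enzyme, the largest falls. TXNIP and ARRDC4 thus moved against most genes of this list. With Gln depletion 3 of 15 rose and 3 fell (3 and 7 with the replicate block; median -0.20): GPD1 (1.93) and KLF10 (1.37) rose most, and PNPLA3 (-1.54) and SCD (-1.48), a desaturase, fell most.

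Glucose entry, which TXNIP and ARRDC4 restrain, was followed through glucose transporters, the enzymes that handle glucose 6-phosphate, and PFKFB3, which does not act on it. With MAPKi 3 of 10 tested rose and 3 fell (median 0.12), with HKDC1 (1.87) and GPI (0.41) the largest rises and PFKFB3 (-1.05) and the transporter SLC2A3 (-0.82) the largest falls. With Gln depletion 0 rose and 2 fell, SLC2A12 (-2.69) and HKDC1 (-1.23), and with the replicate block 2 rose and 6 fell (median without it -0.57). PFKFB3 is also in the list of MondoA and ChREBP targets.

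The thioredoxin system holds the partner that TXNIP binds. With MAPKi all 11 genes were called, 4 higher and 7 lower (median -0.69). TXN, thioredoxin itself, fell by 1.36 on the log2 scale while TXNIP rose, PRDX6 fell by 1.14, and PRDX2 (0.99) and PRDX5 (0.66) rose most. With Gln depletion TXNRD1 (2.61), the cytosolic thioredoxin reductase, rose and TXNRD3 (-1.08) and PRDX4 (-0.74) fell, 1 higher and 2 lower of 11 (2 and 4 with the replicate block; median -0.24).

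The NEDD4-family ubiquitin ligases bind the PPxY motifs of ARRDC proteins. With MAPKi 5 of 8 tested rose and 2 fell (median 0.16), with HECW1 (1.37) and NEDD4L (0.27) the largest rises and NEDD4 (-0.31) and SMURF2 (-0.12) the falls. With Gln depletion 2 of 9 rose, HECW2 (2.28) and SMURF2 (1.05), and 0 fell (median 0.69), and with the replicate block 5 rose and 2 fell. Among the other genes of the arrestin fold, 2 of 5 tested rose with MAPKi, VPS26C (0.25) and VPS26B (0.11), and 3 fell, with the largest fall in ARRB2 (-0.84), a beta-arrestin, and the next in VPS26A (-0.16; list median -0.14). ARRB1 (-1.33), the other beta-arrestin, was the 1 gene that fell with Gln depletion (median -0.38; 2 fell with the replicate block), and ARRDC5 had at most 1 read in any library.

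Among the membrane proteins and trafficking partners of TXNIP and the ARRDC proteins, 5 of 9 tested rose and 3 fell with MAPKi (median 0.23). SLC11A2 (1.19), an iron transporter, and ITGB4 (1.06), an integrin, rose most, and the receptor EGFR (-1.46) was among those that fell. F2R (-0.96), a thrombin receptor, was the 1 gene called with Gln depletion (median -0.04), where the replicate block gave 3 higher and 2 lower. Of the subunits of AMPK, the kinase that phosphorylates TXNIP and so promotes its degradation, 5 of 6 tested rose with MAPKi and 1 fell (median 0.24), with PRKAB1 (0.96) and PRKAA2 (0.41) the largest rises and PRKAA1 (-0.28) the fall. With Gln depletion 3 of 6 rose and 0 fell (4 and 0 with the replicate block; median 1.00), led by PRKAB2 (3.42) and PRKAB1 (1.23). All of these are mRNA levels, and protein, phosphorylation and glucose uptake were not measured here.

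**Figure D4:**
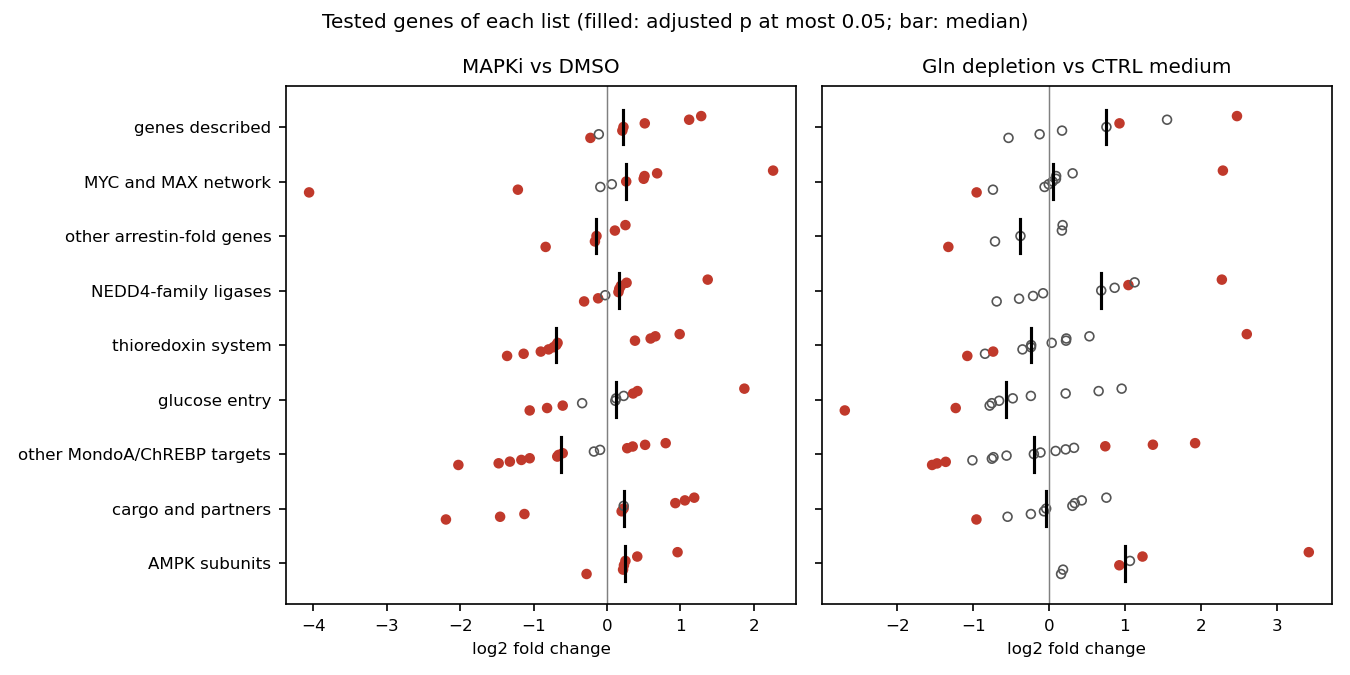
Log2 fold change (horizontal axis) of each tested gene of each list (rows) with MAPKi (left) and with Gln depletion (right, without the replicate block). Filled points passed an adjusted p of 0.05 in edgeR's test, open points did not, and bars mark the median of the list. Points of one row are spread vertically only to keep them apart. TXNIP, ARRDC4 and ARRDC2 lie right of the list medians with MAPKi, and the median of the other MondoA and ChREBP targets lies at -0.63.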

How the data were processed

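RNA-seq was performed on 12 libraries of A375 cells. Per the labels and methods, the authors trimmed reads with fastp 0.20.1, aligned them to GRCh38 with HISAT2 2.2.1 and deposited raw counts of reads on exons per gene from HTSeq 0.13.5. The labels describe cytoplasmic RNA, the methods total RNA. Every value column was used. Symbols were matched to RefSeq (36524 directly, 513 through older symbols, 7622 unmatched).

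Counts of protein-coding genes averaging at least 10 normalized reads were tested in edgeR 4.0.16 (R 4.3.3, TMM, quasi-likelihood), each experiment apart with treatment as the only term, and the difference over 12 libraries. Adjusted p (Benjamini-Hochberg, over all genes tested) of at most 0.05 was called, against no change and, after the study's methods, against a 1.5-fold change (glmTreat). Scripts were tested on simulated data, where false calls took a share above the nominal one, more so with the small spread of the MAPKi experiment, so calls near the threshold are less firm than their adjusted p states. DESeq2 1.42.0 was an alternative. With such depth, the spread between replicates limits precision more than counting does.

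Same-numbered libraries of the glutamine experiment deviated together from their group means (correlations of 0.573, 0.427 and 0.378 across 12514 genes, which are not independent), so numbers pair them. The numbers come from the labels. No 2 libraries were alike within counting noise.

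The genes, lists and tests were chosen with earlier results of these data known. The genes named are the 8 described, in each list up to 2 of the largest rises and 2 of the largest falls that were called, 1 example from each of the lists that check the treatments, and the 5 genes most like TXNIP or ARRDC4 over 12 libraries (averaging at least 100 normalized reads, log2 of CPM plus 0.5). 1 gene that this rule picks is not reported here. PSMC3IP, ARRDC1-AS1, ARRDC3-AS1, RN7SK and ARRDC5 were added after their values had been seen. Markers of fibroblasts (12.6 to 28.7 CPM summed), epithelium (27.8 to 206, by group in the results for MAPKi and DMSO) and endothelium (2.23 to 8.85) were also summed in each library. Among these markers COL1A2, DCN, EPCAM, CDH1, PECAM1 and CDH5 averaged under 10 reads. Figures were drawn with matplotlib 3.10.9.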

Additional observations from a re-analysis of the deposited data

Results flagged for a closer look

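The responses of 2 genes differed between the experiments in the test of the difference itself (edgeR, Benjamini-Hochberg). In the same test 19.8% of 12627 mRNAs were called higher and 20.7% lower. Calls were thus common among all mRNAs, and a call alone does not set these genes apart. For MLXIP, the log2 fold change with MAPKi minus that with Gln depletion was 0.80 (SE 0.18, adjusted p = 0.00459). This difference did not pass against a 1.5-fold change (adjusted p = 0.141). With the same replicate numbers compared, 3 of 3 were higher with MAPKi and 3 of 3 lower with Gln depletion. The fall of MLXIP with Gln depletion was itself not called without the replicate block (adjusted p = 0.0965, edgeR). For ARRDC3, the difference was -2.55 (SE 0.45, adjusted p = 0.000908, and 0.00259 against a 1.5-fold change). Gln-depleted libraries were higher in 3 of 3 comparisons of the same replicate number, MAPKi libraries in 1 of 3. The share of all mRNAs that kept 1 direction in 3 of 3 such comparisons was not counted. The experiments were sequenced in separate batches, and each change was measured within its own batch. Groups of 3 were too small for a test of single outlying libraries.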

How the results depend on the processing

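With MAPKi, the count of 6 called genes and of 2 past the fold threshold held under each alternative within 1.5 times except the fit of all 12 libraries, which called 3 (TXNIP, ARRDC2 and ARRDC4) and 1 (ARRDC4). That fit called 6274 of 12627 mRNAs, and 3037 passed the fold threshold in it. With Gln depletion, where 2 were called, DESeq2 called 4, the replicate block 5, experimental batch as a term 5 and the fit of all 12 libraries 5, and an adjusted p of 0.01 left 1. Calls among all mRNAs moved too. Of 12514 mRNAs, 2218 were called in the main fit, 3331 with DESeq2, 6125 with the block and 5612 with the batch term. The fit of all 12 libraries called 5198 of 12627, and an adjusted p of 0.01 left 601 of 12514. Leaving out 1 library gave 1 to 4: 1 without CTRL replicate 2, CTRL replicate 3 or Gln-depleted replicate 2, and 4 without Gln-depleted replicate 3. These fits called 896, 984, 743 and 1219 mRNAs in that order. Past the fold threshold, where 1 was called, the replicate block gave 3 and an adjusted p of 0.01 gave 0, and leaving out 1 library gave 0 (without CTRL replicate 3) to 1. Among all mRNAs 696 passed it in the main fit, 2084 with the block, 219 at an adjusted p of 0.01 and 286 without CTRL replicate 3. Chosen after seeing the data, the batch term gave 2 past the fold threshold, where 1891 of 12514 mRNAs passed it. Leaving out the replicate 3 pair, also chosen after seeing the data, gave 0 called and 0 past the threshold. In that fit of 2 against 2 libraries, 78 of 12522 mRNAs were called at all. A replicate block in the Gln experiment alone, also added later, called ARRDC2 in the difference between experiments (-0.37, adjusted p = 0.0485, edgeR).

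The log2 fold change reversed only for values that were not called. ARRDC1 with Gln depletion was 0.11 without CTRL replicate 1 and 0.02 without Gln-depleted replicate 2 (range on leaving out 1 library -0.32 to 0.11). In the difference between experiments, ARRDC1 was 0.10 without CTRL replicate 2 and 0.14 without Gln-depleted replicate 1 (range -0.30 to 0.14), and TXNIP was 0.06 without CTRL replicate 3 and 0.22 without Gln-depleted replicate 1 (range -0.75 to 0.22). The causes were not tested. MAPKi and DMSO libraries of the same number correlated by 0.0651, 0.0602 and 0.0592, too little to pair them, although each correlated best with its own number, and the replicate block changed no call there.

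Over the alternatives, the log2 fold change with MAPKi ran from 1.15 to 1.40 for TXNIP and from 1.04 to 1.18 for ARRDC4, both called each time. With Gln depletion it ran from 1.96 to 2.82 for ARRDC3 (adjusted p 5.99e-08 to 0.104) and from 1.12 to 2.06 for TXNIP (0.000936 to 0.195). The differences of MLXIP (0.68 to 0.87) and ARRDC3 (-2.90 to -2.03) were called each time.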
